A study of Mus musculus with 9 samples.

Results

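The residual difference between wire-injured mouse femoral arteries under a focal adhesion kinase (FAK) inhibitor and uninjured, sham-operated arteries was measured by RNA sequencing of the arterial media, the smooth muscle layer of the wall. The comparison uses the 6 libraries of these 2 groups, chosen by their labels, out of 9 libraries in the series, and every gene of the table that the authors deposited for the pair. That table lists 16187 genes, of which 16166 had a mean normalised read count of at least 10 and were tested.

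All mice were C57BL/6. The sham group had sham surgery. The injured group, used here as a reference, was collected 14 days after wire injury. The inhibitor-treated group had the same injury and the same collection day, and was given VS-4718, a FAK inhibitor, by oral gavage at 50 mg/kg, 2 times a day over 2 weeks. Per the labels the alternative to the inhibitor was a citrate vehicle, and a sham group with the inhibitor was not analysed here, so any effect of the drug apart from the injury cannot be told apart from the difference reported. Fat and adventitia were dissected off, and the lumen was flushed with lysis reagent to strip endothelial and immune cells. Each group has 3 libraries. The labels number them but do not say whether they came from separate animals, so a p-value here measures only how far these libraries scatter, and that scatter may be technical.

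Smooth muscle cells of a healthy artery make a contractile apparatus of smooth muscle actin, myosin and their regulators. After injury they can lose it, divide, and make matrix. FAK is a tyrosine kinase at the sites where integrins hold the cell to its matrix, and it passes signals from there to growth and to gene expression. An artery sample also carries RNA of fibroblasts, nerves, fat and blood cells. In RNA from whole tissue, fewer cells of a type and less RNA per cell cannot be told apart.

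Between 16309441 and 21241338 reads per library were recovered from the deposited values. The tissue label held: the smooth muscle genes Acta2, Myh11 and Tagln stood at 33160 normalised counts or more in each of the 6 libraries. Replicates correlated at a Pearson r of 0.949 to 0.988 on log2 values. The lowest values involved inhibitor-treated replicate 3, which carried liver transcripts: the mean log2 level of 23 hepatocyte genes was 10.4 there and 2.64 to 3.85 in the other 5 libraries, and albumin (Alb) lay at 16020 against 14.0 to 70.6. Skeletal muscle genes were higher in sham replicate 3, with a mean log2 level of 9.54, and in inhibitor-treated replicate 2, with 9.67, than in the other 4 libraries, with 6.84 to 8.13. Adipocyte genes were highest in sham replicate 3, with a mean log2 level of 11.46 against 10.07 to 10.39 in the other 5 libraries. The results that follow were repeated without each library.

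Levels are normalised read counts on 1 scale over the 9 libraries and are listed in the order of replicates 1, 2 and 3. A log2 fold change is inhibitor-treated minus sham on log2(normalised count + 1), with its standard error after ±, from 3 libraries per group. A gene is called when its adjusted p (limma, Benjamini-Hochberg over all genes tested) is under 0.05, and the words rose and fell are used for called genes.

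Inhibitor-treated arteries differed from sham arteries in few genes, and mainly through genes that were higher. Of the genes tested, 983 (6.08%) were called, 832 of them higher (5.15%) and 151 lower (0.934%). In 4506 genes (27.9%) the 3 inhibitor-treated values did not overlap the 3 sham values, and 3410 genes had an unadjusted p under 0.05. Tested the same way in their own tables, 6076 of 16278 genes (37.3%) were called between injured and sham arteries and 6099 of 16901 (36.1%) between inhibitor-treated and injured arteries. These comparisons share libraries with each other, so their values are set side by side below with no test between them.

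The rises were large and the falls small. The median log2 fold change was 2.05 among genes called higher and -0.41 among genes called lower. The first value was the same with the 24 of the 832 genes that had no read in any sham library set at a lower bound of 3 reads per library. Among the rises, 615 were at least 2-fold, 170 at least 16-fold and 106 under 1.5-fold. Of the falls, 123 were under 1.5-fold and only 2 reached 2-fold. Those were Ano4 (-1.62 ± 0.27, adjusted p = 0.0125, limma) and Lrtm2 (-1.15 ± 0.24, adjusted p = 0.0288), named after their values were seen. Ano4 (a calcium-dependent membrane protein of the anoctamin family) lay at 107 to 139 in sham and 26.6 to 55.0 in inhibitor-treated arteries, and Lrtm2 (a leucine-rich repeat membrane protein) at 90.1 to 128 and 38.9 to 64.5. Over all genes the median log2 fold change was -0.01, with an interquartile range of -0.14 to 0.19, and the 95% interval lay within 2-fold either way for 12519 genes (77.4%). The count of calls fell to 598 without inhibitor-treated replicate 1, 533 without replicate 2, 518 without sham replicate 1 and 596 without sham replicate 2. The count of falls was 33 to 99 without any 1 of the 6 libraries. Scaling on ribosomal protein genes moved the median of all genes to 0.16 and gave 1871 higher and 33 lower, that is 98.3% of calls higher against 84.6%, and quantile normalisation gave 617 and 220, or 73.7% higher.

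**Figure D1:**
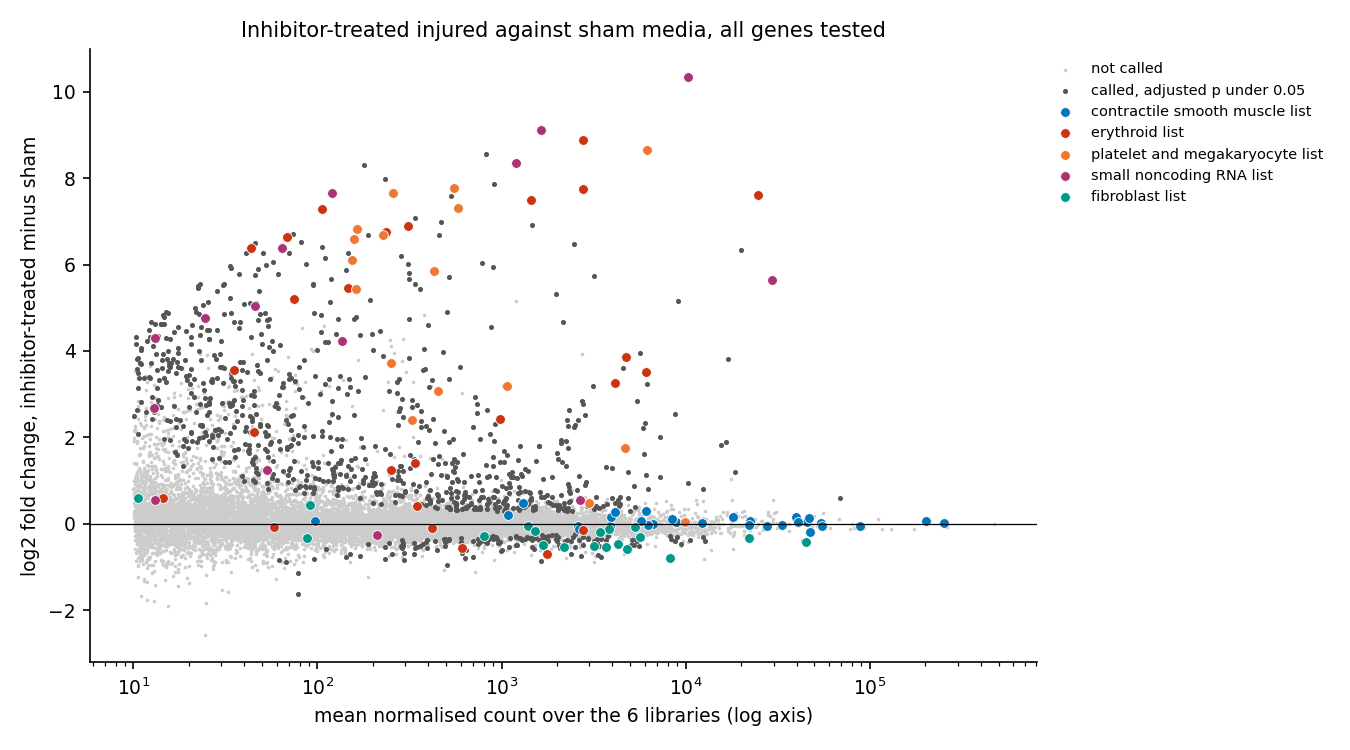
Each point is 1 of the 16166 genes tested, by its mean normalised count over the 6 libraries (x, log axis) and its log2 fold change, inhibitor-treated minus sham (y). Dark points are the 983 called genes, and coloured points are members of 5 gene lists. Contractile genes lie along 0 at high counts, whereas erythroid, platelet and small noncoding RNA genes reach log2 values above 7, and no called gene falls below -1.62.

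Gene lists were used to describe which kinds of genes made up the difference, and each list is given by its counts beside the 5.15% higher and 0.934% lower of all genes tested. The members of all 43 lists are drawn in the plot of list members. In lists of other cells and RNA classes, and in some lists of artery genes, some members passed the filter on the mean only because the inhibitor-treated libraries held many reads. Such members had to differ, so the counts of these lists are descriptions. The p-values and the lack of overlap of such members are descriptions too. List counts are given with the number of members that passed with a sham mean under 10, where there were any.

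**Figure D2:**
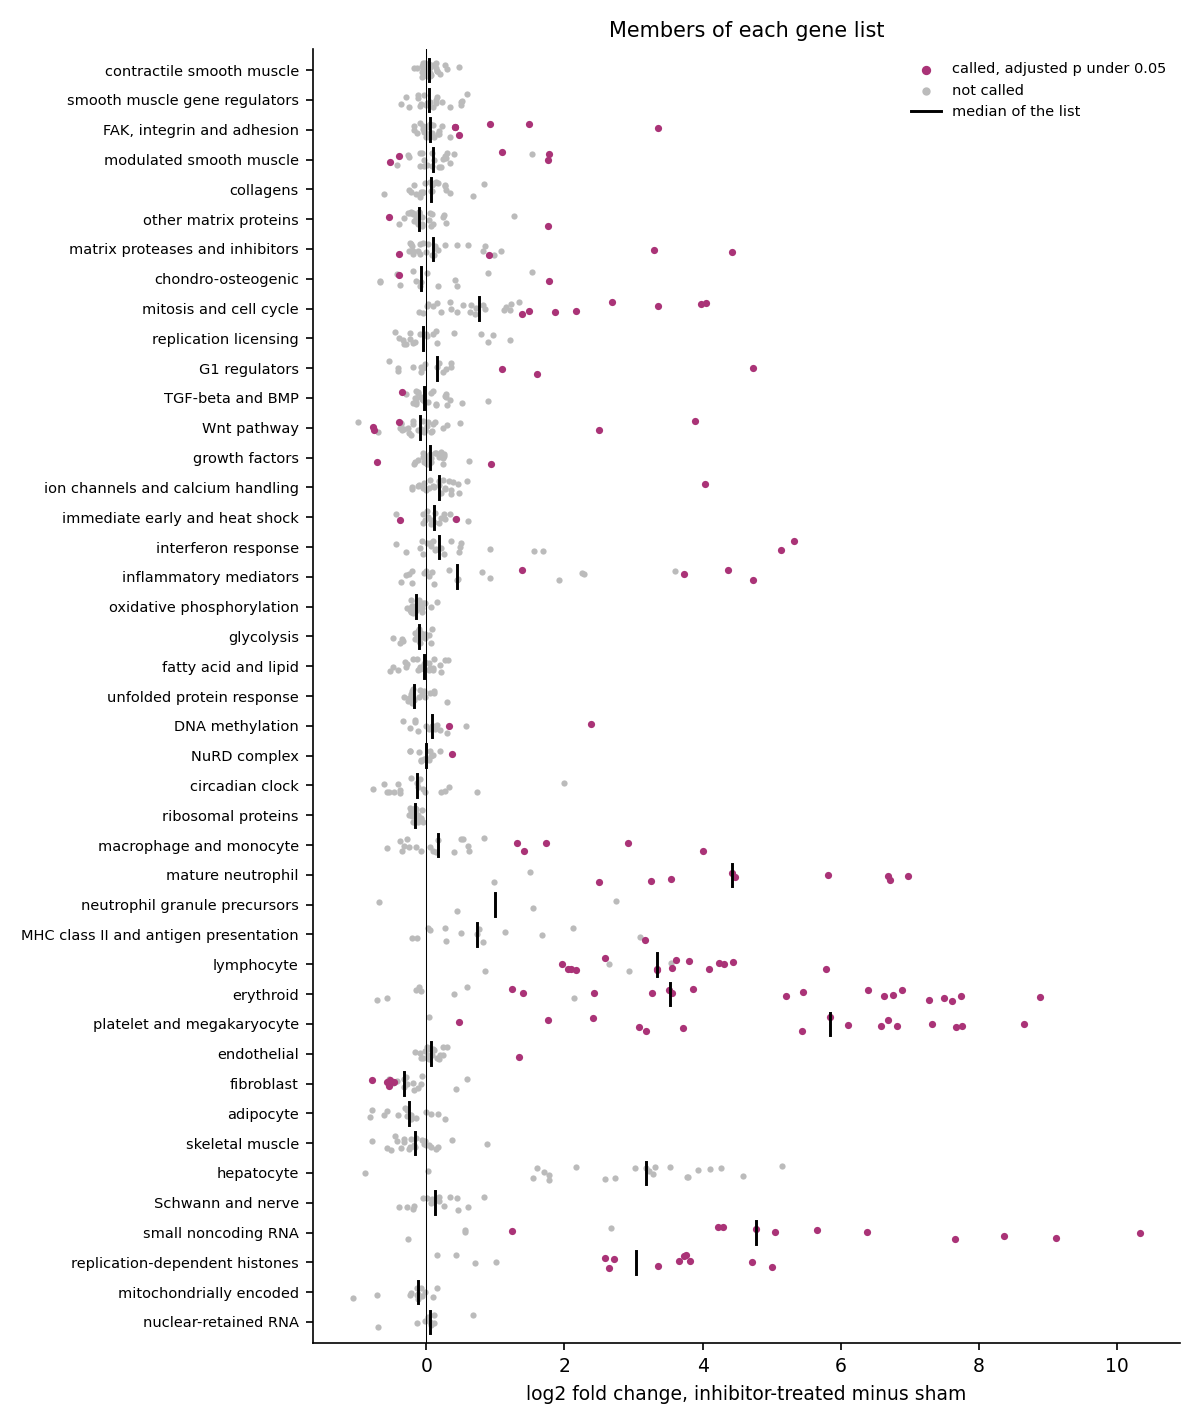
Each point is 1 gene of a list, placed by its log2 fold change, inhibitor-treated minus sham (x), in the row of its list. Coloured points passed an adjusted p under 0.05, grey points did not, and the black bar is the median of the list. Lists of contractile, collagen, ribosomal and metabolic genes have no coloured point, whereas platelet, erythroid and small noncoding RNA lists hold the coloured points farthest to the right, up to 10.34; only members that passed the filter on the mean are drawn.

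No contractile gene differed by the test: 0 of 30 were called, with a list median of 0.04. By unadjusted p under 0.05 (limma) 2 members were higher and 0 lower, and edgeR and DESeq2 called 0. All 30 intervals lay within 2-fold of sham, and the bounds farthest from 0 were -0.44 and 0.84. Acta2 (smooth muscle actin, GRCm38 chromosome 19, 34241090 to 34255590, minus strand) lay at 272200, 287800 and 206500 in sham, at 256200, 251700 and 249600 in inhibitor-treated and at 64040, 72280 and 71280 in injured arteries. The inhibitor-treated values fell inside the sham range and above every injured value. Its log2 fold change was 0.01, with a 95% interval of -0.38 to 0.40.

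Myh11 (smooth muscle myosin heavy chain) was at 205800, 197300 and 207800 in inhibitor-treated against 191200, 226800 and 176500 in sham arteries, a difference of 0.06 with an interval of -0.28 to 0.40. Tagln (transgelin) differed by 0.04 (-0.24 to 0.33) and Cnn1 (calponin) by -0.06 (-0.34 to 0.21). Itga8, the integrin alpha 8 subunit, was the lowest of the list at -0.19 (-0.44 to 0.07), and Pln, phospholamban, the regulator of the calcium pump, the highest at 0.47 (0.10 to 0.84, adjusted p = 0.142). Pln and Synm are named after their values were seen: without sham replicate 2 these 2 members were called higher, Pln (0.67, adjusted p = 0.0214) and Synm, an intermediate filament gene (0.39, adjusted p = 0.0332). In injured arteries the same list gave 1 higher and 23 lower against sham, with a median of -1.49.

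**Figure D3:**
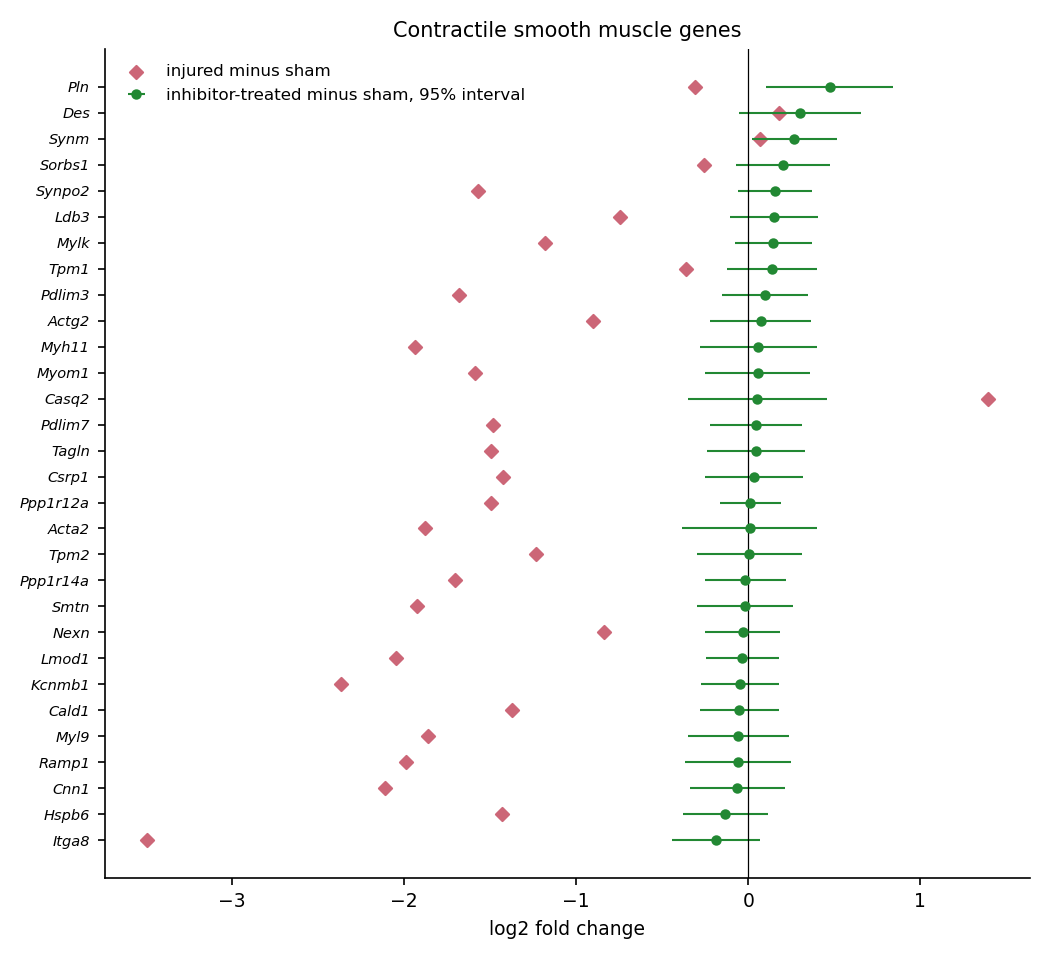
Log2 fold changes of the 30 contractile smooth muscle genes: circles are inhibitor-treated minus sham with the 95% interval from limma, and diamonds are injured minus sham, from 3 libraries per group. Every circle lies between -0.19 and 0.47, and the diamonds of most genes lie below -1.

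The genes that control the contractile programme gave no call either. Of 22 smooth muscle gene regulators 0 were called (median 0.04), although the unadjusted limma p was under 0.05 for 4 higher and 1 lower member. A sham mean under 10 was found in 1 of the 22. Calls by edgeR numbered 0, and DESeq2 called 1 higher and 1 lower. Myocd (myocardin, the coactivator of serum response factor) lay at 1188, 1210 and 1079 in sham and at 1716, 1573 and 1141 in inhibitor-treated arteries, and at 171, 294 and 420 in injured arteries. Replicates 1 and 2 exceeded every sham value and replicate 3 did not. The difference was 0.34 (0.02 to 0.67, adjusted p = 0.216), and without inhibitor-treated replicate 3 it was 0.51 and passed (adjusted p = 0.0141). Also named after their values were seen, Notch3 (0.63, adjusted p = 0.0339), a receptor of arterial smooth muscle, passed without sham replicate 2, and Tbx18 (-0.43, adjusted p = 0.0472), a T-box factor of mural cells, without sham replicate 3.

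Sost and Dsp are further genes of the sham media that were nearly absent after injury. Sost (sclerostin, a secreted Wnt inhibitor, chromosome 11, 101962458 to 101967015) lay at 14660, 10260 and 6936 in sham, at 12850, 12670 and 10340 in inhibitor-treated and at 81.1, 23.7 and 21.5 in injured arteries. Dsp (desmoplakin, which ties intermediate filaments to desmosomes) lay at 3913, 3471 and 3584 in sham, at 3449, 2991 and 3471 in inhibitor-treated and at 10.7 or fewer in injured arteries. The inhibitor-treated values of Sost fell inside the sham range, and those of Dsp overlapped it. The differences from sham were 0.24 (-0.30 to 0.79) for Sost and -0.14 for Dsp (adjusted p = 0.605 and 0.404, limma).

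Matrix genes were near sham with a few exceptions. None of 23 collagens was called (median 0.07), although the unadjusted limma p was under 0.05 for 5 higher and 3 lower collagens. Again edgeR called 0, and DESeq2 called 1 higher and 1 lower. Col1a1 (the alpha 1 chain of type I collagen) lay at 31410, 33690 and 27040 against 32300, 27190 and 26320 in sham and 156800, 87730 and 113400 in injured arteries. The minor chain Col5a3, chosen after its values were seen, reached 0.92 and passed without inhibitor-treated replicate 3 (adjusted p = 0.00928), which held 271 normalised counts against 409 and 519 in the other 2. Of 31 other matrix proteins, 1 rose and 1 fell, against 15 higher and 5 lower in injured arteries.

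Thbs1 (thrombospondin 1, a matrix protein that platelets also store, on chromosome 2, 118111876 to 118127133) was the matrix gene that rose. It lay at 6898, 7991 and 6406 in inhibitor-treated, at 2641, 2670 and 1317 in sham and at 12150, 11500 and 14800 in injured arteries. All 3 inhibitor-treated values exceeded the sham values and were below the injured ones (1.76 ± 0.25, adjusted p = 0.00543). Fbln1 (fibulin 1, of elastic fibres and basement membranes) fell, from 4374, 4143 and 4651 to 3247, 2834 and 2898 (-0.54 ± 0.08, adjusted p = 0.00663).

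Genes that mark smooth muscle after it leaves the contractile state gave 3 rises and 2 falls of 26. Besides Thbs1, Runx1 (a transcription factor of bone and of blood cell formation) rose from 71.1, 91.5 and 75.1 to 214, 285 and 317, a change of 1.77 ± 0.18. Cd44 (the hyaluronan receptor, also of leukocytes) rose by 1.09 ± 0.15. Both lay above every sham value, and in injured arteries Runx1 lay at 732 to 1479. Ly6a (Sca-1) fell by 0.53 ± 0.08 on the log2 scale, and Mgp (matrix Gla protein, an inhibitor of calcification) by 0.40 ± 0.10, a call that no left-out library preserved (adjusted p = 0.0605 to 0.202). Spp1 (osteopontin) was not called: inhibitor-treated replicate 2 held 1948 normalised counts and the other 2 held 67.4 and 158, against 90.1 to 104 in sham and 3279 to 7232 in injured arteries. Its difference from sham was 1.53 ± 1.03, and 0.13 without that library.

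Proteases and their inhibitors gave 3 rises and 1 fall of 28. Of the 28, 2 had a sham mean under 10, Mmp12 and Mmp8, so their calls are descriptions. Mmp12 (macrophage elastase) lay at 19.9, 121 and 54.5 against 5.01, 2.35 and 6.53 in sham and 1050 to 3385 in injured arteries (log2 fold change interval 1.80 to 4.80, adjusted p = 0.0236). Its call was lost without inhibitor-treated replicate 2 or 3 or sham replicate 1 or 2, with adjusted p values up to 0.0849. Mmp8 (neutrophil collagenase) lay at 18.0, 37.6 and 41.8 with 2 reads in all sham libraries together, a ratio of 45.6 with an exact 95% counting interval of 12.3 to 382. Its call was lost without inhibitor-treated replicate 2 (adjusted p = 0.0583).

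Ptk2, which encodes FAK (chromosome 15, 73205102 to 73423280, minus strand), lay at 1070, 1013 and 1051 in sham, at 1069, 1078 and 1042 in inhibitor-treated and at 1228, 1205 and 1409 in injured arteries. The inhibitor-treated range overlapped the sham range, and the difference was 0.04 (-0.11 to 0.18). The inhibitor acts on the kinase and not on its transcript, so these levels do not check the treatment. Of 30 genes of FAK, integrins and adhesion sites, 6 rose and 0 fell, with a median of 0.05. In injured arteries 6 were higher and 16 lower than sham.

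The largest rise of these was Itga2 (integrin alpha 2, the collagen receptor subunit of platelets among other cells), from 6.01, 19.9 and 4.36 to 54.1, 100.9 and 146, a call lost without inhibitor-treated replicate 2 or sham replicate 1 (adjusted p up to 0.0631). Itga4 (integrin alpha 4, which leukocytes carry) rose from 206, 211 and 243 to 571, 523 and 771, a change of 1.49 ± 0.15. Ptk2b (PYK2, the FAK paralogue, also of blood cells), named after its values were seen, rose by 0.92 ± 0.18. In all 3 genes no inhibitor-treated value overlapped sham.

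Itgb3 (integrin beta 3, shared by platelets and smooth muscle), named after its values were seen, rose by 0.47 ± 0.11. Lims1 (PINCH1, of the integrin-linked kinase complex) rose by 0.42 ± 0.06 and Vcl (vinculin, which ties adhesions to actin) by 0.41 ± 0.08. Vinculin lay at 5196, 4642 and 5038 against 3801, 4018 and 3449 in sham and 729, 1685 and 2712 in injured arteries. Its call was lost without inhibitor-treated replicate 1 or 3 or sham replicate 1 (adjusted p up to 0.0840) and with all 9 libraries in 1 fit. The count for the list was 2 without sham replicate 1, 3 without inhibitor-treated replicate 2 and 3 with all 9 libraries in 1 fit. Platelet and leukocyte genes were also higher in the inhibitor-treated libraries, as given below, and their part in these rises was not tested.

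Wnt genes made up part of the falls. Of 32 Wnt pathway genes 2 rose and 3 fell, with a median of -0.10, against 9 higher and 10 lower in injured arteries. Of the 32, 1 had a sham mean under 10, Lef1, so its rise is a description. Sfrp4, a secreted Wnt antagonist, lay at 3308, 3088 and 3763 in sham, at 1921, 2170 and 1885 in inhibitor-treated and at 12010, 10760 and 13810 in injured arteries. Every inhibitor-treated value lay below sham and every injured value above (-0.75 ± 0.09, adjusted p = 0.00314). Wnt5a, a ligand of noncanonical Wnt signalling, fell from 917, 866 and 871 to 520, 503 and 521 (-0.77 ± 0.07, adjusted p = 0.000618), and injured arteries held 632 to 804. The 3 inhibitor-treated values were below every value of both other groups.

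Frzb (another secreted Wnt antagonist) fell by 0.40 on the log2 scale, but 5 of the 6 fits without a library did not call it, with adjusted p up to 0.0955. The transcription factors Tcf7 and Lef1, which act in Wnt signalling and mark T cells, rose. Tcf7 went from 13.0, 23.5 and 24.0 to 95.9, 78.0 and 196, and Lef1 from 1.00, 1.17 and 5.45 to 37.0, 23.9 and 95.4. Both were highest in inhibitor-treated replicate 3. The part of T cells in these rises was not tested. Without sham replicate 1 or 2 the call of Lef1 was lost (adjusted p up to 0.0620).

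Igfbp6, which binds insulin-like growth factors, fell from 3131, 2736 and 3075 to 1935, 1904 and 1595 (-0.71 ± 0.09, adjusted p = 0.00415). Wisp2 (CCN5, a matricellular protein) fell from 4110, 5190 and 3879 to 2693, 2611 and 2286 (-0.78 ± 0.11, adjusted p = 0.00662). Akr1c14, an aldo-keto reductase, fell by 0.80 ± 0.13 on the log2 scale and Myoz2 (myozenin 2, a sarcomere protein of striated muscle) by 0.84 ± 0.14. These 4 were named under a rule that admits only genes whose groups do not overlap. The call of each held without any 1 library.

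Further falls were less firm. Vstm2b, Lefty1, Inmt and Ppp1r1b lost their call in 5 of the 6 fits without a library, Phgdh and 2210407C18Rik in 4, Tmem35a and Il33 in 3 and Fam84a in 2, with adjusted p up to 0.146. Il33, the alarmin interleukin 33, lay at 395, 493 and 498 against 734, 658 and 865 in sham and 1890 to 2544 in injured arteries. Bmp4, a bone morphogenetic protein, was the 1 call among 26 TGF-beta and BMP genes, a fall of 0.35 that no fit without a library kept (adjusted p up to 0.161). A sham mean under 10 was found in 1 of the 26, which was not called. Dusp1 (a phosphatase of MAP kinases) fell by 0.38 and lost its call in 4 of 6.

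Some fibroblast markers were lower in inhibitor-treated arteries. Of 19, 1 with a sham mean under 10, 5 fell and 0 rose, with a median of -0.33 against -0.01 for all genes tested. By unadjusted limma p under 0.05, 11 were lower and 0 higher, and the log2 fold change was negative in 17 of the 19. The summed level was 96310 to 103600 against 121400 to 149100 in sham and 163900 to 207100 in injured arteries. Pi16 (peptidase inhibitor 16, of adventitial fibroblasts) lay at 9762, 9133 and 12390 in sham, at 5870, 5357 and 6653 in inhibitor-treated and at 4251, 4431 and 4855 in injured arteries. The inhibitor-treated values lay between those of the other 2 groups without overlap (-0.79 ± 0.13, adjusted p = 0.0119). Ly6a and Fbln1, given above, and the stromal genes Clec3b (tetranectin) and Cd34 were the other calls. Clec3b lost its call in 3 and Cd34 in 4 of the 6 fits without a library. The count of falls was 3 without inhibitor-treated replicate 2 or 3, 9 with DESeq2 and 3 with all 9 libraries in 1 fit. The adventitia was removed by dissection, and how much remained on each vessel was not tested.

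Of 30 mitosis and cell cycle genes 8 rose, 0 fell and 22 were not called, with a median of 0.77. A sham mean under 10 was found in 1 of the 30, which was not called. By unadjusted limma p under 0.05, 20 were higher and 0 lower, and edgeR called 8 and DESeq2 11, all higher. The interval lay within 2-fold of sham in only 7, so no call does not mean near sham here. In injured arteries 28 were higher. Mki67 (the proliferation antigen Ki-67) lay at 69.1, 80.9 and 64.3 in sham, at 521, 652 and 283 in inhibitor-treated and at 608, 798 and 697 in injured arteries. All inhibitor-treated values exceeded sham, and replicate 3 was the lowest (2.68 ± 0.28, adjusted p = 0.00118). Nusap1, a spindle protein, went from 36.1, 48.1 and 37.0 in sham to 650, 1072 and 434, above the 134 to 168 of injured arteries. Ube2c (an enzyme of mitotic protein destruction) rose by 3.98 ± 0.38 and Bub1b (a spindle checkpoint kinase) by 3.36 ± 0.50.

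Top2a (topoisomerase II alpha), Kif11 and Kif23 (mitotic kinesins) and Cenpe (a kinetochore motor) completed the calls, with rises of 1.38 to 2.17. They were named after their values were seen. The count was 5 without inhibitor-treated replicate 1 or 2, 4 without sham replicate 1, 5 without sham replicate 2 and 12 without inhibitor-treated replicate 3. None of 20 replication licensing genes was called, with a median of -0.05; 4 were higher and 1 lower by unadjusted limma p under 0.05, edgeR called 0 and DESeq2 2 higher. Erythroid precursors also divide, and the part of blood cell RNA in the mitotic genes was not tested.

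Among 17 genes of the G1 phase 3 rose. E2f2, a cell cycle transcription factor that erythroid cells use, lay at 387, 626 and 793 against 16.02, 21.1 and 27.2 in sham and 112 to 212 in injured arteries (4.73 ± 0.29, adjusted p = 0.000111). Rb1, the retinoblastoma protein, rose by 1.09 ± 0.13 and Ccne2 (cyclin E2) by 1.60 ± 0.26, the latter lost without sham replicate 1 (adjusted p = 0.0604). Ccnd1 (cyclin D1, a growth factor target) lay at 605, 522 and 536 in inhibitor-treated, at 662, 759 and 817 in sham and at 1260, 1509 and 1472 in injured arteries. Its inhibitor-treated values were below sham without overlap, and the difference of -0.41 ± 0.10 missed the threshold (adjusted p = 0.0564).

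**Figure D4:**
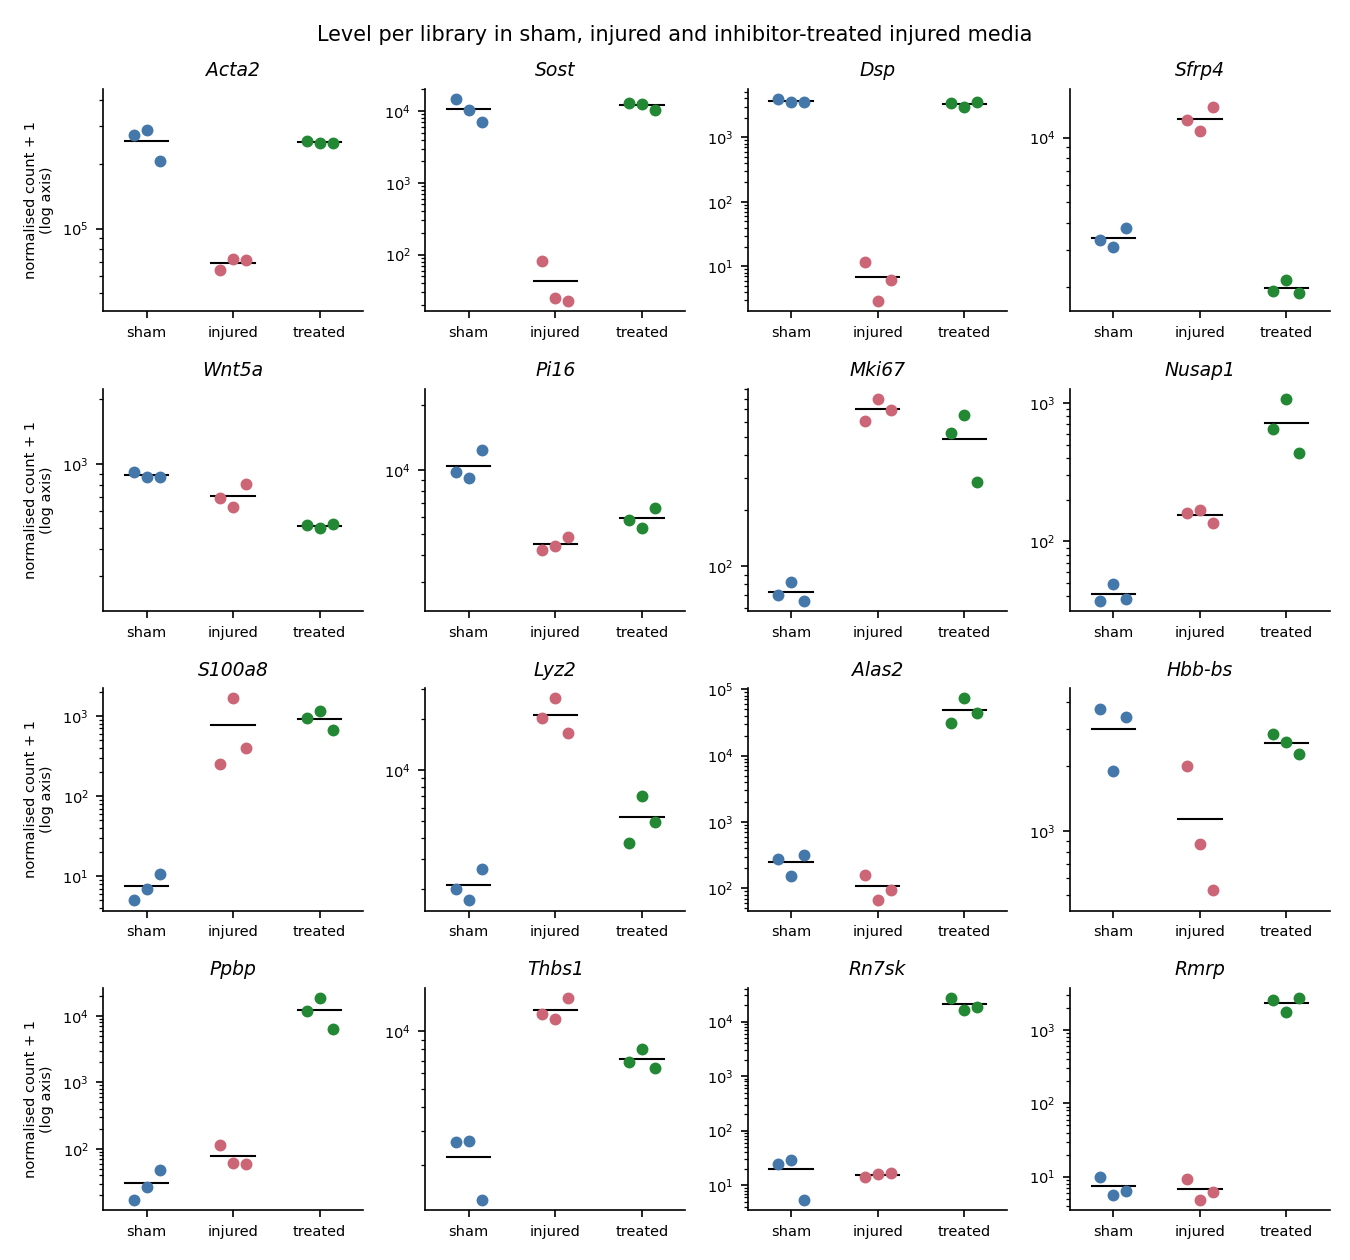
Normalised read count + 1 of 16 genes in each of the 9 libraries (y, log axis that differs between panels and does not start at 0), by group (x); each point is 1 library and each bar a group mean. Acta2, Sost and Dsp have inhibitor-treated points level with sham, Sfrp4 and Wnt5a below it, and Alas2, Ppbp, Rn7sk and Rmrp far above both other groups, whereas Hbb-bs overlaps sham.

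Of 23 macrophage and monocyte genes, 1 with a sham mean under 10, 5 rose and 18 were not called, with a median of 0.16. In 11 the interval lay within 2-fold of sham. In injured arteries 21 were higher. Their summed level was 8557 to 9797 in sham, 10150 to 15490 in inhibitor-treated and 48720 to 73490 in injured arteries. The defining genes Adgre1 (F4/80), Cd68 and Itgam were not called, with 91.1 to 217, 76.9 to 141 and 40.8 to 104 normalised counts against 94.96 to 115, 78.1 to 87.1 and 44.6 to 55.1 in sham. Clec7a (dectin 1) rose from 23.0, 22.3 and 11.98 to 122, 156 and 159, against 428 to 989 in injured arteries. Lyz2 (lysozyme) rose from 1997, 1702 and 2611 to 3738, 7080 and 4954 and lost its call without sham replicate 1 or 2 (adjusted p up to 0.0783). Ccr2, the chemokine receptor of inflammatory monocytes, rose by 1.42 ± 0.20, and Ly6c2, their surface antigen, from at most 9.38 normalised counts to 80.7, 165 and 80.9. Mpeg1 (perforin 2) rose by 1.74 ± 0.30, a call lost without inhibitor-treated replicate 2 or sham replicate 1.

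Of 14 mature neutrophil genes 11 passed the filter, 6 of them with a sham mean under 10, and 9 rose. The summed level was 123 to 148 in sham, 2604 to 3116 in inhibitor-treated and 1549 to 6324 in injured arteries. S100a8 (a subunit of calprotectin, abundant in neutrophils) lay at 4.005, 5.86 and 9.80 in sham, at 942, 1157 and 669 in inhibitor-treated and at 252, 1652 and 394 in injured arteries. The inhibitor-treated values lay far above sham and inside the injured range (6.98 ± 0.31, adjusted p = 6.41e-05). The sham mean of S100a8 was under 10, so this is a description. S100a9, its partner, rose by 5.82 ± 0.44 and Retnlg (resistin-like gamma) by 6.69 ± 0.36. The chemokine receptor Cxcr2 had 1 read in all sham libraries together and 478 in the inhibitor-treated ones, a ratio of 411 (exact 95% counting interval 73.5 to 16280). Granule genes of immature neutrophils summed to 170 to 226 against 110 to 160 in sham and 783 to 2544 in injured arteries. Of the 4 tested, 2 with a sham mean under 10, 0 were called. By unadjusted limma p under 0.05, 2 were higher, with 0 calls by edgeR and 1 by DESeq2.

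Of 20 lymphocyte genes 19 passed the filter, 14 of them with a sham mean under 10, and 15 rose. Their summed level was 522, 613 and 650 in sham, 1867, 1446 and 4959 in inhibitor-treated and 3713 to 8303 in injured arteries. Inhibitor-treated replicate 3 was the highest of its group. Il7r (the interleukin 7 receptor) rose by 4.24 ± 0.37, Cd3e (of the T cell receptor complex) by 3.35 ± 0.50, Trbc2 (a T cell receptor constant region, near-identical to Trbc1 and so uncertain alone) by 3.55 ± 0.37 and Iglc2 (an immunoglobulin light chain constant region with close copies) by 5.79 ± 0.59. The count was 7 without sham replicate 1, 9 without sham replicate 2 or inhibitor-treated replicate 1 or 2, and 5 among genes with a mean of at least 50.

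Inflammatory and interferon genes gave rises and no falls, and most members were not called. Of 27 inflammatory mediators 23 passed the filter, 7 of them with a sham mean under 10, and 4 rose. By unadjusted limma p under 0.05, 8 of the 23 were higher and 2 lower. The interval lay within 2-fold of sham in only 7, so no call does not mean near sham here. Among 22 interferon response genes it did so in 14, and 5 were higher and 0 lower by unadjusted limma p under 0.05. Il1b (interleukin 1 beta) lay at 61.7, 110 and 145 against 7.01, 1.17 and 2.18 in sham and 216 to 759 in injured arteries, so inhibitor-treated values lay between the other groups. Il1rn (the interleukin 1 receptor antagonist) rose by 4.36 ± 0.67, lost without inhibitor-treated replicate 2 (adjusted p = 0.0551), and Ccl6, a myeloid chemokine, by 1.39 ± 0.15. For Cxcl5, a neutrophil chemokine, 3 reads were found in all sham libraries together, and the ratio was 29.0 (9.64 to 143). Of 22 interferon response genes, all 22 of which were higher in injured arteries, 2 rose: Rsad2 (viperin), from 56.1, 109 and 108 to 2014, 5999 and 3508 with 297 to 1600 in injured arteries, and Oas3 by 5.14 ± 0.59. Oas3 was the 1 member of the 22 with a sham mean under 10, so its rise is a description.

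**Figure D5:**
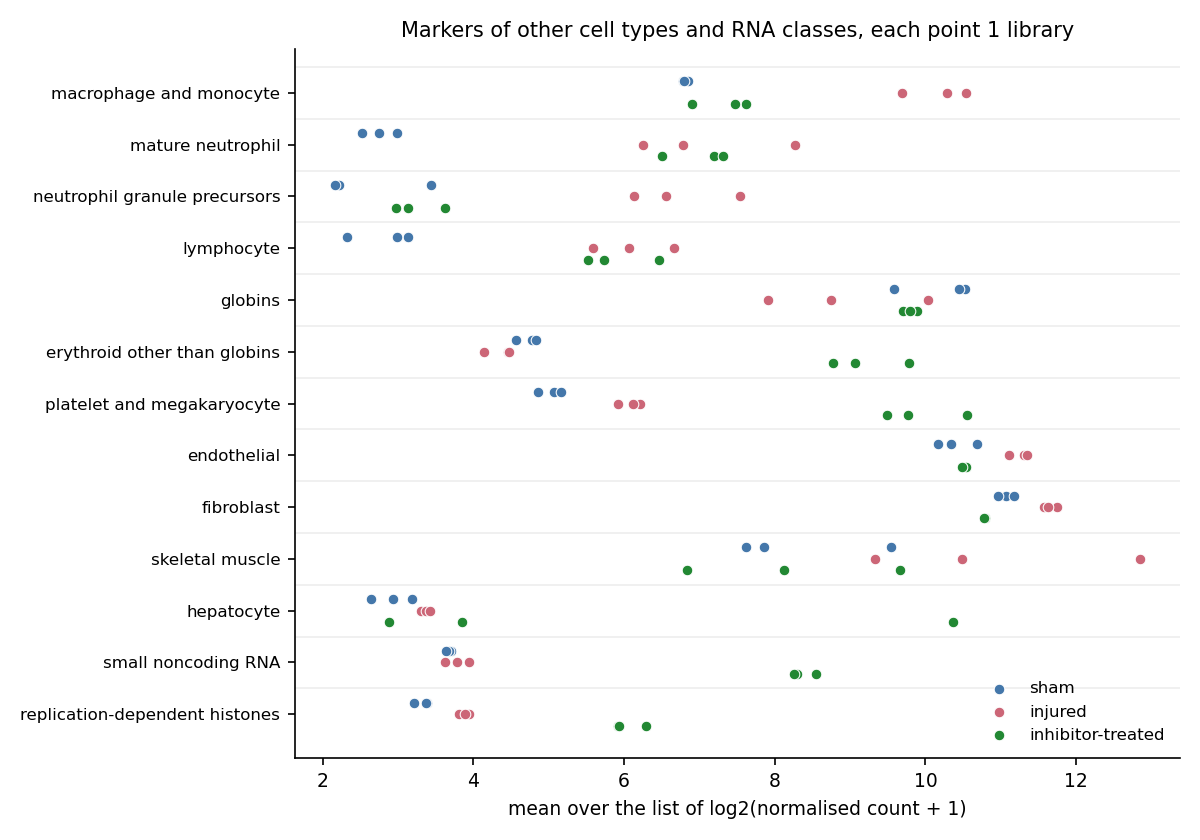
Each point is 1 library, placed by its mean log2(normalised count + 1) over a marker list (x), in the row of the list (y) and coloured by group. Erythroid genes other than globins lie at 8.78 to 9.78 in inhibitor-treated libraries and at 4.14 to 4.84 in the other 6, the globins of inhibitor-treated libraries lie inside the sham range, and 1 inhibitor-treated library stands apart in hepatocyte genes at 10.4.

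Genes of red cell precursors were among the large rises. Of 32 erythroid genes 26 passed the filter, 9 of them with a sham mean under 10, and 18 rose and 0 fell. Between injured and sham arteries 16 passed, so counts for the 2 comparisons are not over the same genes. The first enzyme of haem synthesis in erythroid cells is Alas2 (chromosome X, 150547375 to 150570638, plus strand). Its promoter is shown as that of an erythroid gene with a large rise, and any part of the promoter in that rise was not tested. The sequence is from RefSeq (GRCm38.p6, chrX:150547167-150547466, plus strand, 250 bases before to 50 after the gene start). Capitals mark TTATCT, which reads AGATAA on the other strand, the core letters bound by GATA factors.
Alas2 promoter: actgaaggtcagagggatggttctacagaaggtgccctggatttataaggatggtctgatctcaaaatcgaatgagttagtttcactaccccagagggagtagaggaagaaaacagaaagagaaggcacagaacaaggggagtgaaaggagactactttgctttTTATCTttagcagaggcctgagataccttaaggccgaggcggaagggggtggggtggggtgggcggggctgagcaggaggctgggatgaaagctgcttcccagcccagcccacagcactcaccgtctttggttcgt
AGATAA was searched on both strands and stood 86 bases before the start of Alas2. It occurred in 3432 of 27025 promoters of this length (12.7%), in 945 of 11523 of genes tested (8.2%) and in 7 of 19 erythroid promoters in the table, and a match is a description of the letters only.

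Alas2 lay at 277, 150 and 312 in sham, at 158, 64.5 and 94.5 in injured and at 30980, 72800 and 43270 in inhibitor-treated arteries. Every inhibitor-treated value was far above every other library (7.62 ± 0.35, adjusted p = 6.41e-05). Slc4a1 (band 3, the anion exchanger of red cells) went from 16.02, 8.21 and 18.5 to 1393, 4155 and 3038. Car2 (carbonic anhydrase 2) rose by 7.74 ± 0.43. Fech, the last enzyme of haem synthesis, Slc25a37 (mitoferrin 1) and Bpgm (of red cell glycolysis), chosen after their values were seen, rose by 3.51, 3.86 and 3.27 from 569 or more normalised counts in sham. Gata1, the erythroid and megakaryocyte transcription factor, also chosen so, had no read in sham and 69.3, 127 and 64.5 in inhibitor-treated arteries, at least 26.8-fold higher with 3 reads set per sham library.

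The globins gave no call. Hbb-bs (adult beta globin) lay at 2841, 2586 and 2287 in inhibitor-treated against 3700, 1899 and 3389 in sham arteries, a difference of -0.16 (-0.69 to 0.38). The 4 globin genes, in near-identical pairs that can share reads, summed to 4548 to 5059 against 4095 to 7699 in sham and 1214 to 5197 in injured arteries. The other 22 erythroid genes summed to 63980 to 137000 against 3395 to 3857 and 3420 to 6305.

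Large rises outside the marker lists included further genes of blood cells. Ube2l6, a conjugating enzyme of ISG15, lay at 479, 448 and 458 in sham, at 1431, 1330 and 681 in injured and at 35220, 58520 and 24700 in inhibitor-treated arteries (6.34 ± 0.26). Trim10, of erythroid maturation, rose by 7.59 ± 0.48. Slamf1, a leukocyte receptor, had no sham read and was at least 109-fold higher, with 199, 618 and 245 normalised counts. Ctse (cathepsin E) had 2 sham reads against 1501, a ratio of 646 (178 to 5339). Cd226, an adhesion receptor of platelets and lymphocytes, rose by 8.57 ± 0.62, Apol11b by 7.88 ± 0.79 and Knl1, a kinetochore protein, by 6.68 ± 0.49.

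Of 17 platelet and megakaryocyte genes, 8 with a sham mean under 10, 16 rose. The gene not called was Vwf (von Willebrand factor, made also by endothelium), at 0.04 (-0.36 to 0.44). The summed level was 13330 to 16310 in sham, 34380 to 52720 in inhibitor-treated and 23520 to 33880 in injured arteries, and in sham 7597 to 12350 of it was Vwf. Ppbp, pro-platelet basic protein, a platelet chemokine, lay at 16.02, 25.8 and 46.8 in sham, at 112, 59.7 and 58.4 in injured and at 11770, 18620 and 6353 in inhibitor-treated arteries. No inhibitor-treated value came near the other groups (8.65 ± 0.45, adjusted p = 7.77e-05). Pf4 (platelet factor 4), chosen after its values were seen, rose by 3.19 ± 0.39 from 156 to 209 in sham.

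Gp6, the platelet collagen receptor glycoprotein VI, went from 0, 2.35 and 3.27 in sham to 342, 677 and 506 (7.67 ± 0.54, adjusted p = 0.000193). The sham mean of Gp6 was under 10, so this is a description. Its promoter is shown as that of a platelet gene holding the same letters, from RefSeq (GRCm38.p6, chr7:4397695-4397994, minus strand); capitals mark AGATAA, 144 bases before the start.
Gp6 promoter: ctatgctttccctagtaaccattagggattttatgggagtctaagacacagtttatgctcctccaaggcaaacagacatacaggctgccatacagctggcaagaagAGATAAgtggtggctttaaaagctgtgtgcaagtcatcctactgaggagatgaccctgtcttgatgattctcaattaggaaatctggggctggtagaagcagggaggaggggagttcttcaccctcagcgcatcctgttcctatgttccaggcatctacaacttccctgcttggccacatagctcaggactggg
The letters occurred in 5 of 12 platelet promoters in the table and in 2 of 25 contractile ones. Gp9 (glycoprotein IX) rose by 7.32 ± 0.52 and Tubb1 (platelet beta-tubulin) by 7.76 ± 0.55. Rgs18, P2ry12 (the platelet ADP receptor) and Mpig6b, outside the list, rose by 6.91, 6.04 and 7.07.

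Some small noncoding RNAs rose by large factors, and the ends of 3 of them are shown because they bear no poly(A) tail of the kind messenger RNAs carry. The sequences are from GENCODE vM21 (GRCm38), 5′ to 3′ in DNA letters, and capitals mark the terminal T run where RNA polymerase III stops. Rn7sk is shown by its last 60 of 331 bases (chr9:78175303-78175362, minus strand), and Rny1 (chr6:47788069-47788180, minus) and Rny3 (chr6:47781624-47781725, plus) whole.
Rn7sk: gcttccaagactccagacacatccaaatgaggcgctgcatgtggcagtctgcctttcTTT
Rny1: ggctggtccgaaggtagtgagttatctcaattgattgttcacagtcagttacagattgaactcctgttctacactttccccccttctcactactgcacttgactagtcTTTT
Rny3: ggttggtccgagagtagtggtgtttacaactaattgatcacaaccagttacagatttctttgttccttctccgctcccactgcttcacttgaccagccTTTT
Of the 24 members of the list, 15 passed the filter, 8 of them with a sham mean under 10, and 11 rose. The list also holds Rpp30, a protein subunit of ribonuclease P, which was not called (-0.27 ± 0.12), and Gm26917, described below. The summed level was 58340 to 117000 in inhibitor-treated arteries, of which Gm26917 made up 33340 to 78190. Without Gm26917 it was 2073 to 3185 in sham, 1866 to 3631 in injured and 25010 to 38850 in inhibitor-treated arteries.

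Rn7sk, the RNA that holds the elongation factor P-TEFb, lay at 23.0, 28.1 and 4.36 in sham, at 13.1, 15.2 and 15.5 in injured and at 26970, 16220 and 18270 in inhibitor-treated arteries. This was the largest log2 fold change of all genes called (10.34 ± 0.57, adjusted p = 8.08e-05). Rpph1 (the RNA of ribonuclease P, chromosome 14) went from 7.01, 2.35 and 6.53 to 3780, 3063 and 2966, and Rmrp (the RNA of ribonuclease MRP, chromosome 4) from 9.01, 4.69 and 5.45 to 2587, 1790 and 2739. Rny1, a Y RNA, had no sham read and was at least 73.7-fold higher, and for Rny3 1 sham read stood against 416, a ratio of 358 (63.9 to 14180). In all of these the 3 inhibitor-treated libraries stood apart from the other 6. Gm26917, whose locus resembles ribosomal RNA and is uncertain for that reason, went from 1138, 1018 and 1112 to 78190, 33340 and 61420.

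Histone genes whose messages end in a stem-loop instead of a poly(A) tail mostly did not enter the test: 14 of 52 passed the filter, 10 of them with a sham mean under 10, and 10 rose. The summed level of the 14 changed less than these members: 2502 to 2579 in sham, 3193 to 5439 in inhibitor-treated and 2530 to 3367 in injured arteries. The stem-loops of the 4 members with the smallest adjusted p are shown from GENCODE vM21 (GRCm38), with the 16 bases of the stem-loop, where the stem-loop binding protein binds, in capitals. They lie in annotated UTR on chromosome 13, at chr13:23621777-23621802 (minus), chr13:23698084-23698109 (minus), chr13:23581945-23581970 (plus) and chr13:22040961-22040986 (minus).
Hist1h1e: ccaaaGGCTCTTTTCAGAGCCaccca
Hist1h4c: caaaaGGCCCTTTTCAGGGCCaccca
Hist1h4d: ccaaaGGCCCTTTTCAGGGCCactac
Hist1h4i: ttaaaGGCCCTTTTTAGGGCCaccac
Hist1h1e, a linker histone, lay at 82.6, 70.6 and 67.2 in inhibitor-treated against 6.01, 3.52 and 4.36 in sham and 3.58, 18.0 and 4.29 in injured arteries. All inhibitor-treated values were above the other 6 (3.75 ± 0.31, adjusted p = 0.000407). The sham mean of Hist1h1e was under 10, so this is a description. Hist1h4d rose by 4.71 ± 0.60, and for Hist1h4c 1 sham read stood against 138, a ratio of 119 (21.0 to 4725). Histone H4 copies are near-identical, so the split of reads between them is uncertain. The list count was 4 without inhibitor-treated replicate 2, 6 without inhibitor-treated replicate 1 or sham replicate 2, 1 among genes with a mean of at least 50 and 5 after quantile normalisation.

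Of 9 nuclear-retained RNAs 0 were called by limma or edgeR, with 1 higher and 1 lower by unadjusted limma p under 0.05 and 1 lower by DESeq2. Malat1 lay at 67690, 73010 and 71460 against 60430, 69050 and 67970 in sham (0.12, with an interval of -0.12 to 0.36). Processed pseudogenes gave 49 rises of 261 tested (18.8%), and reads that also fit their parent genes make these uncertain. How the RNA was selected before sequencing is not stated in the labels.

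Several other lists gave no call. In oxidative phosphorylation (30 genes), glycolysis (19), fatty acid and lipid genes (25), the unfolded protein response (20), the circadian clock (19), mitochondrially encoded genes (13), and adipocyte (16), skeletal muscle (24), hepatocyte (23) and Schwann cell markers (16), limma and edgeR called 0. By unadjusted limma p under 0.05 these lists held at most 1 higher and 7 lower members, and DESeq2 called at most 2. No call does not mean near sham in every list. The interval lay within 2-fold of sham in all 30 oxidative phosphorylation genes. It did so in only 11 of 19 circadian clock, 6 of 16 adipocyte, 3 of 24 skeletal muscle and 1 of 23 hepatocyte genes. The hepatocyte median was 3.185, with 22 members above sham and 16 with a sham mean under 10. Inhibitor-treated replicate 3 stood apart in that list, as given above. All 28 ribosomal protein genes lay below sham, with a median of -0.16 and 17 at an unadjusted p under 0.05; limma and edgeR called 0 and DESeq2 5 lower, and scaling on these genes sets their median difference by construction. Of 20 endothelial genes 1 rose, Mmrn1 (multimerin 1, also of platelets), by 1.34 ± 0.22, a call lost without sham replicate 1 or 2 (adjusted p up to 0.0620) and with all 9 libraries in 1 fit. Pecam1 and Cdh5, which define endothelium, differed by 0.04 and 0.24 with no call.

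Trpc6, a cation channel of smooth muscle and platelets, lay at 314, 651 and 172 against 17.0, 17.6 and 24.0 in sham and 79.9 to 126 in injured arteries (4.03 ± 0.43). Gadd45a, a stress gene placed in the DNA methylation list, rose from 114, 122 and 104 to 604, 794 and 435. Hgf (hepatocyte growth factor), Fosl2 (an AP-1 subunit), Tet3 (a methylcytosine oxidase), Mta3 (of the NuRD complex), Plaur (the urokinase receptor), H2-Ob (of MHC class II) and, among falls, Mmp23 each lost their call in 2 to 6 of the 6 fits without a library.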

How the data were processed

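RNA from femoral artery media was sequenced in 9 libraries, 3 per group, grouped by their labels. The deposited values are signal, that is, normalised read counts: per the column headers the authors deposited 1 table per pair of groups, each library divided by 1 factor. The build was mm10 (GRCm38), per the submitters' processing notes; aligner, counter and strand setting were not given in the sources used here, so antisense and overlapping genes are uncertain. All values (100%) came out as whole reads within 0.01 read, which gave the depth of each library.

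The sham and inhibitor-treated table was fitted with limma 3.58.1 (trend, R 4.3.3) on log2(normalised count + 1), for genes with a mean of at least 10, with group as the only term. Adjusted p-values are Benjamini-Hochberg over all genes tested, with a threshold of 0.05. The log2 scale with the pseudocount understates the change of low genes. Tests with edgeR 4.0.16 and DESeq2 1.42.0 on the recovered reads were alternatives, with other pseudocounts, filters, scalings and left-out libraries. Levels across the 3 groups were put on 1 median-of-ratios scale from 16234 genes. Marker lists, members and alternatives were chosen with earlier results of these data known. Named genes were a fixed set and genes taken by a rule. The rule took the 15 largest rises and falls among called genes whose mean reached 100 and whose groups did not overlap (with and without marker list genes). It also took up to 4 called per list and direction by smallest adjusted p, or all where 5 or fewer. Other genes were named with their values known, and not all are marked so where they appear. Counting intervals are exact and, like the floor of 3 reads per library, cover counting error only. The scripts were tested on simulated data. Some genes that the rule named are not reported here.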

Additional observations from a re-analysis of the deposited data

How the results depend on the processing

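The count of called genes was 983 and ran from 518 to 854 when 1 library was left out, with 470 to 759 higher and 33 to 99 lower. Ribosomal protein scaling gave 1904 calls, 1871 higher and 33 lower; a mean of at least 50 left 544 higher, since fewer genes were tested; DESeq2 called 289 lower and the fit of all 9 libraries 39. Leaving out a library gave 0 to 2 contractile genes higher, 7 to 14 lymphocyte genes, 3 to 7 fibroblast genes lower and 4 to 10 histone genes. Lymphocyte calls were 5 and histone calls 1 at a mean of at least 50, histone calls 5 after quantile normalisation, and fibroblast falls 9 with DESeq2 and 3 with all 9 libraries; apart from the stricter filter the cause was not tested. Of the 106 named genes that were called, none changed sign in the 19 alternatives, and 69 kept their call in each alternative that tested them. The sign of other called genes was not checked. With the replicate number as a block, 877 genes were called, 762 higher and 115 lower. Deviations from the group means correlated at r = 0.11, -0.07 and 0.07 in same-numbered libraries and at -0.19 to 0.11 in the other pairs. With 3 libraries per group these values cannot show whether the numbers pair the libraries. Genes with few sham reads have wide counting intervals, and 3 libraries per group limit what small differences could be detected.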
